A study of Mus musculus with 23 samples.

Results

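The response of the wild-type mouse ileum to PCN (pregnenolone 16α-carbonitrile), which activates the pregnane X receptor (PXR, gene *Nr1i2*) of rodents, was described from 11 of the 23 arrays of the series. These were the arrays whose labels name ileum of wild-type mice given PCN (WT PCN, 5 arrays) or oil alone (WT CONT, 6 arrays). The mice were C57BL/6J males, purchased at 6 weeks of age and kept for 2 weeks before allocation. WT PCN mice were injected intraperitoneally once a day with 100 mg/kg PCN dissolved in corn oil over 4 days, and WT CONT mice were given the corn oil. All were killed 6 hours after the last injection, at ZT6 (6 hours into the light phase), without fasting. The other 12 arrays came from *Pxr*-/- males of the same strain background, 6 given PCN and 6 given oil by the same schedule, and they were used beside the WT values and for the test of the difference between genotypes. The *Pxr*-/- mice had been bred in house and the WT mice purchased, so genotype and origin cannot be told apart. Of 6 WT mice allocated to PCN, 5 have an array here.

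PXR is a nuclear receptor of liver and intestine that binds steroids, bile acids and many drugs. It pairs with the retinoid X receptor on DNA and raises the transcription of cytochrome P450 enzymes, conjugating enzymes and efflux pumps. Its classical binding elements are pairs of a short half-site, AGGTCA or AGTTCA, set as direct or everted repeats. PCN is a synthetic steroid. The P450 and other xenobiotic families are left aside below, and the genes described are those outside them.

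The stretches before the start sites of *B3galt5*, *S100g* and *Defb39* are printed because these genes, with transferase, calcium-binding and antimicrobial products, were among the 7 largest increases outside the xenobiotic families. They are the 250 bases upstream of a RefSeq transcript start (GRCm38.p6), 5′ to 3′ in the direction of transcription, and capitals mark each half-site on either strand. For *B3galt5*, which has 3 listed starts, the second is shown (chr16:96273263-96273512, plus strand); those of *S100g* (chrX:162964600-162964849) and *Defb39* (chr8:19064922-19065171) are on the minus strand.
B3galt5: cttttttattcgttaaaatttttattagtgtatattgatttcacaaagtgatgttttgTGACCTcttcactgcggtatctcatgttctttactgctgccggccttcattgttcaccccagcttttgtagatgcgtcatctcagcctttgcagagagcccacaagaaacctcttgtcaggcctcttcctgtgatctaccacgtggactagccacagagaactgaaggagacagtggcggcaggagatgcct
S100g: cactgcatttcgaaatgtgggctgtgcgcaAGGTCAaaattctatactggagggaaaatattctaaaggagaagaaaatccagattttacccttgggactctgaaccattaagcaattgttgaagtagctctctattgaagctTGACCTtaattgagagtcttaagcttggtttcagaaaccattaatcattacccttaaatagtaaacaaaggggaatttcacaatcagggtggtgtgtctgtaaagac
Defb39: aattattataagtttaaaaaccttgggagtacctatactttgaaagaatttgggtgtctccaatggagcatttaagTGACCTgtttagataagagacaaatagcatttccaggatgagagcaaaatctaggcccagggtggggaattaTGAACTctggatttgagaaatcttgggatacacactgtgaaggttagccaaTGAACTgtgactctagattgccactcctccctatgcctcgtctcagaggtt
The *B3galt5* stretch shown, that of start 2, held 1 half-site. The stretches before its starts 1 and 3, not shown, held 0 each. The *S100g* stretch held 2 half-sites and the *Defb39* stretch 3. A promoter of the same table was found for 113 of the 158 genes called outside the xenobiotic families, and at least 1 half-site stood in 30 of them (26.5%), against 26.1% of the promoters of all tested genes and 30.4% of all promoters. Half-sites paired as a direct repeat with a spacer of 3 or 4 bases, or as an everted repeat with a spacer of 6, stood in none of these 113 promoters and in 0.0555% of all promoters. A match of letters is not a binding site, and these windows leave out distal elements.

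Each array measured the RNA of 1 mouse. Median spot intensity ran from 84 to 99.5 over the 11 arrays against a median background of 19 to 27, and 60.9 to 65.7% of spots were well above background. The labelled tissue was checked with 11 ileum markers, whose mean log2 intensity was 13.64 to 14.12 on every WT array. *Nr1i2* itself lay between 11.82 and 12.37 (log2 intensity) in WT CONT and between 11.57 and 12.53 in WT PCN, and at 11.38 to 12.27 on the *Pxr*-/- arrays. How its probe lies to the deleted part is not given in the sources used here, so it does not check the genotype. *Cyp3a11*, the standard PXR target, was 3.53 ± 0.32 (log2 change ± SE) higher under PCN in WT (limma adjusted p = 1.21e-06) and −0.05 in *Pxr*-/- mice. *Cyp2c55*, another intestinal P450, was 3.51 ± 0.47 higher in WT (adjusted p = 0.000155) and 1.58 in *Pxr*-/- mice.

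Replicates 2 and 3 of WT PCN stood apart in genes of B cells and Peyer's patches, the lymphoid follicles of the ileal wall. The mean of the 22 measured genes of that list was 10.24 on both, against 8.59 to 8.78 on the other 3 WT PCN arrays and 8.25 to 8.61 in WT CONT. The median change over the list was 0.86, and 0.12 without these arrays. No gene of the list was called, although 19 of 22 were higher with PCN. The B cell surface gene *Ms4a1* differed by 2.11 (adjusted p = 0.12). In whole tissue, more cells of a type and more RNA per cell cannot be told apart. Counts that differ most without these 2 arrays are given both ways below, a choice made after seeing the data.

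**Figure D1:**
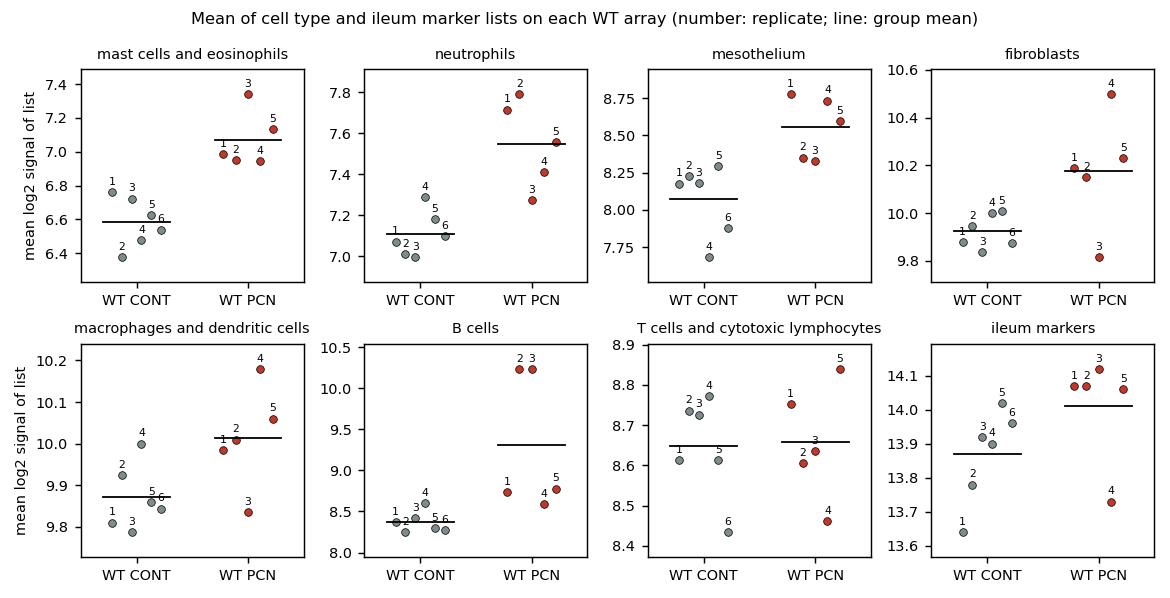
Mean log2 intensity (vertical axes) of the measured genes of 8 cell type lists, in panels, on each WT array, with WT CONT and WT PCN side by side and points numbered by replicate. In the B cell and Peyer's patch panel, WT PCN replicates 2 and 3 lie at 10.24, above the other 3 PCN arrays at 8.59 to 8.78.

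More genes were called higher with PCN than lower, although 7776 of all 17727 genes tested were higher, called or not. Of 17727 genes tested, 186 (1.05%) were called in WT (adjusted p 0.05 or less, fold change over 1.5), with 165 higher (0.931%) and 21 lower (0.118%). Xenobiotic families held 28 of these, all higher. The 158 others, 137 higher and 21 lower, were 0.903% of the 17506 genes outside those families, and their median change was 0.83 in size on the log2 scale. The PCN and CONT arrays did not overlap for 120 of the 158, and for 3.52% of all tested genes. All 158 differed in the called direction in both wash batches. The 158 were chosen on these same arrays, so neither count is separate support for the calls. Without WT PCN replicates 2 and 3, 113 of the 158 kept the call, and 88 kept it in each of 23 refits that left out a single array of the series.

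**Figure D2:**
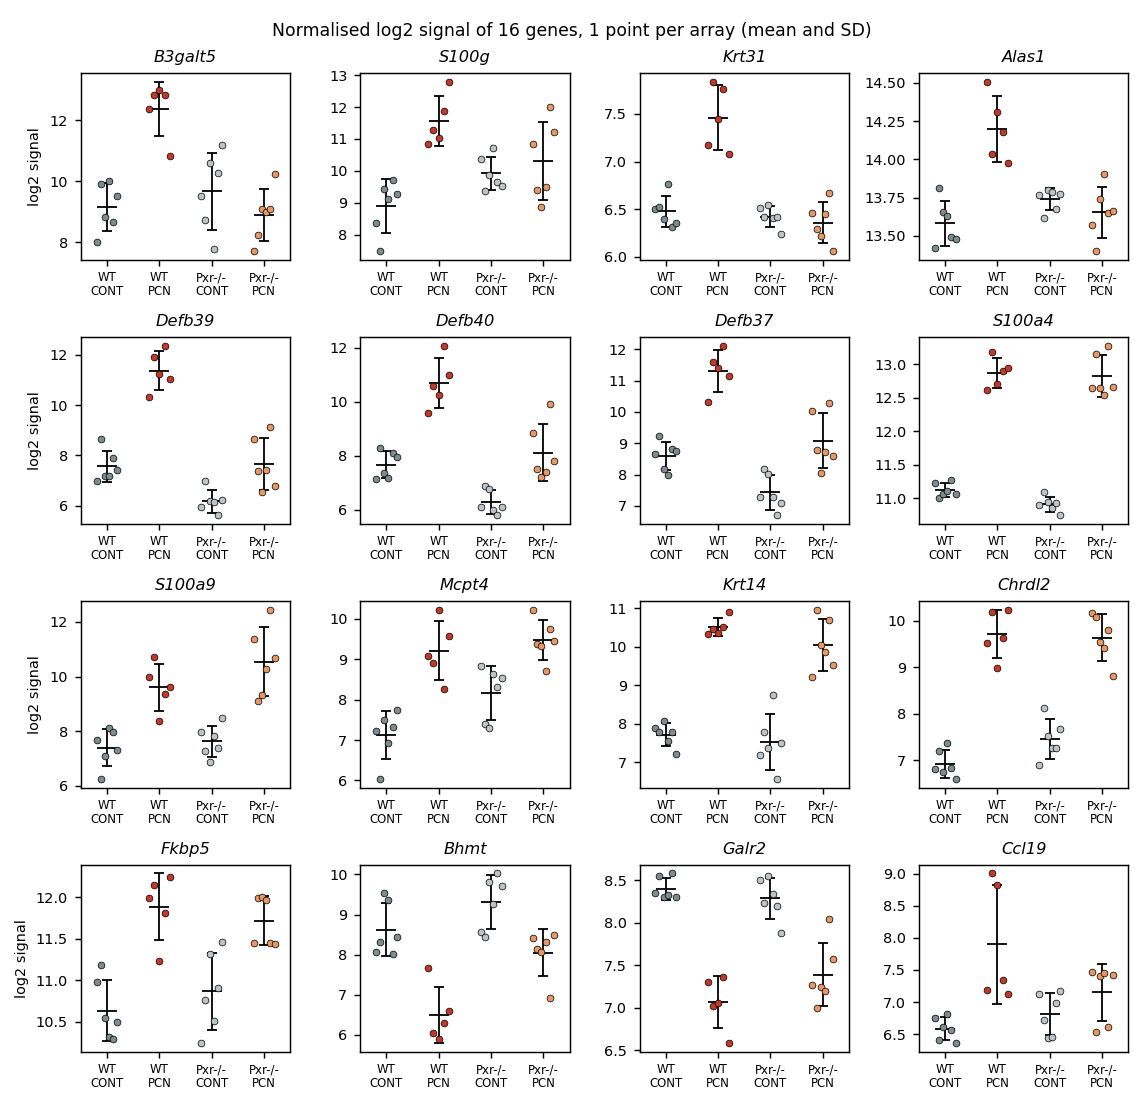
Log2 intensity (vertical axes) of 16 genes, in panels, on every array of the 4 groups, with the group mean as a line and its SD as a bar. Panels are scaled separately: the WT PCN arrays of *B3galt5* and *S100a4* lie above all WT CONT arrays, and those of *Bhmt* below them.

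Among epithelial enzymes, a large increase was measured in *B3galt5*, the galactosyltransferase that builds type 1 chains of mucosal glycans. Its log2 intensity was 8.02 to 10.02 (median 9.18) in WT CONT and 12.38, 12.85, 13.01, 12.82 and 10.85 in WT PCN. Every PCN array lay above every CONT array, and the change was 3.19 ± 0.54, or 9.12-fold (limma adjusted p = 0.00229). In *Pxr*-/- mice its level was 7.79 to 11.20 in CONT and 7.71 to 10.25 in PCN. The change there was −0.78, and the difference between genotypes, 3.97, passed the test (adjusted p = 0.0359). That call was lost in 16 of the 23 single-array refits, with differences of 3.57 to 4.38. *B3gnt6*, which makes the core 3 O-glycan of mucins, rose by 1.00 ± 0.13 (adjusted p = 0.000136). The other 34 of 36 measured mucosal glycosyltransferases were not called, and the median over the list was −0.06, beside −0.02 over all genes. *B3gnt7*, which extends poly-lactosamine chains, was the lowest at −0.93 (adjusted p = 0.22).

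*S100g* (calbindin-D9k), the calcium carrier of enterocytes and a vitamin D target, was 7.48 to 9.72 (median 9.19) in WT CONT and 10.83, 11.29, 11.02, 11.88 and 12.79 in WT PCN. The groups did not overlap, and *S100g* rose by 2.65 ± 0.50, or 6.3-fold (adjusted p = 0.00526). It was 0.39 higher in *Pxr*-/- mice, without a call (adjusted p = 0.695), and the difference between genotypes, 2.27, did not pass the test (adjusted p = 0.672). It was the only call among 28 measured genes of ion and water transport. In other transport, *Slc20a1*, a phosphate carrier, was called at 0.62 ± 0.15, 1 of 327 solute carriers (0.306%) against 1.05% of all genes. That call was lost in 6 of the 23 refits and without WT PCN replicates 2 and 3 (0.40, adjusted p = 0.283).

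Of the 158 genes, 7 also differed between genotypes, where 0.118% of all tested genes were called. The difference includes the WT change by which the 158 were chosen, so the share among them is not an independent result. All 7 were higher with PCN in WT. Beside *B3galt5* these were *Cpm*, *Ttc39b*, *Krt31*, *Dhrs1*, *4931406C07Rik* and *Alas1*, of which *Cpm* and *Ttc39b* are named after their values were seen. *Cpm* encodes carboxypeptidase M, a membrane enzyme that trims peptides. Its level was 10.00 to 10.62 (median 10.45) in WT CONT and 11.51, 11.64, 11.69, 11.90 and 11.81 in WT PCN. It rose by 1.34 ± 0.15 (adjusted p = 1.59e-05), with 0.00 in *Pxr*-/- mice and a difference of 1.34 (adjusted p = 0.00467). *Ttc39b* rose by 1.12 ± 0.12 and *4931406C07Rik*, an uncharacterised protein, by 1.24 ± 0.13, against 0.01 and 0.17 in *Pxr*-/- mice. *Krt31*, a hair keratin, rose by 0.98 ± 0.13, and *Dhrs1*, a short-chain dehydrogenase, by 0.70 ± 0.11. In *Pxr*-/- mice these were −0.07 and −0.05. The difference calls of *Cpm*, *Ttc39b*, *Krt31* and *4931406C07Rik* were kept in all 23 single-array refits, and those of *Alas1* and *Dhrs1* were lost in 18. Without WT PCN replicates 2 and 3, the calls of *Cpm* and *Ttc39b* alone were kept among these 7.

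P450 enzymes need heme and electrons from NADPH, and 3 of 17 measured genes of that supply rose (17.6%, against 1.05% of all genes). *Cyb5a*, the cytochrome b5 that passes electrons to P450s, was 14.25 to 14.80 (median 14.52) in WT CONT and 14.95, 15.28, 15.33, 15.52 and 15.14 in WT PCN. There was no overlap, with a change of 0.72 ± 0.10 (adjusted p = 0.000225) and 0.03 in *Pxr*-/- mice. The difference of 0.69 missed the threshold (adjusted p = 0.0531). *Por*, the P450 reductase, rose by 0.62 ± 0.11, and *Alas1*, which makes the first precursor of heme, by 0.62 ± 0.10. Both are close to the fold threshold: *Por* fell short of it without WT CONT replicate 4 (0.56) or WT PCN replicate 2 (0.57), and *Alas1* without WT PCN replicate 3 (0.58) or 1 (0.54). Without WT PCN replicates 2 and 3 together, *Por* lost its call, and *Cyb5a* and *Alas1* kept theirs. The remaining steps of heme synthesis were not called, and the median over the list was 0.02. *Hmox1*, which breaks heme down, was 1.15 higher without a call (adjusted p = 0.0544).

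Beta-defensins, short cationic antimicrobial peptides of epithelia, held the largest and the third largest rises outside the xenobiotic families. Of 7 measured members 4 were called, all higher: *Defb39*, *Defb40*, *Defb37* and *Defb6*. *Defb39* was 6.97 to 8.66 (median 7.32) in WT CONT and 10.32, 11.90, 11.24, 12.37 and 11.04 in WT PCN. The groups did not overlap and it rose by 3.79 ± 0.42 (adjusted p = 1.59e-05). *Defb40* was 7.15 to 8.27 (median 7.65) in WT CONT and 9.59 to 12.07 (median 10.57) in WT PCN, a rise of 3.01 ± 0.43, and *Defb37* rose by 2.70 ± 0.37. Neither gene's groups overlapped. These 3 genes lie in 1 cluster on chromosome 8, and cross-hybridisation between them was not tested. *Defb6* rose by 1.25 ± 0.27, a call lost without WT PCN replicates 2 and 3 (adjusted p = 0.123). *Defb1*, *Defb14* and *Defb7* were not called, *Defb1* at 0.81 (adjusted p = 0.392). In *Pxr*-/- mice *Defb39* rose too, by 1.47 (adjusted p = 0.0433), and 4 members were called there. The difference for *Defb39*, 2.32, did not pass the test (adjusted p = 0.252).

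S100 alarmins and chemokines that draw myeloid cells formed the next group. Of 25 measured members 8 rose, 20 were higher, and the median change was 0.80 (0.35 to 0.87 over the alternative settings). Without WT PCN replicates 2 and 3 the calls were 5 (*S100a4*, *S100a9*, *Il33*, *Il6* and *Ccl7*), and with the mean of the B cell list as a covariate, a fit also added after seeing the data, they were 3. *S100a4*, a calcium-binding protein of motile and mesenchymal cells, was 11.01 to 11.27 (median 11.09) in WT CONT and 12.61, 13.19, 12.71, 12.90 and 12.95 in WT PCN. With no overlap, it rose by 1.74 ± 0.12 (adjusted p = 4.1e-08). *S100a9*, a subunit of calprotectin, was 6.24 to 8.10 (median 7.49) against 9.99, 10.73, 8.37, 9.36 and 9.60. The groups did not overlap. It rose by 2.16 ± 0.46 (adjusted p = 0.0163), and its call was lost without WT PCN replicate 2 (1.94, adjusted p = 0.0628). Its partner *S100a8* rose by 1.64 ± 0.40 (adjusted p = 0.0397), a call lost in 12 of the 23 refits. Among cytokines, *Il33*, an alarmin of barrier cells, rose by 1.23 ± 0.15 and *Il6* by 0.80 ± 0.11, although *Il6* was above background on only 1 of 6 CONT arrays.

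The chemokines called were *Cxcl5* (1.57 ± 0.34), *Ccl24* (1.54 ± 0.29), *Ccl2* (1.497 ± 0.26), *Ccl7* (1.15 ± 0.21) and *Ccl19* (1.31 ± 0.30), 5 of 45 measured chemokines and receptors (11.1%, against 1.05% of all genes). These attract neutrophils, eosinophils, monocytes and lymphocytes. *Ccl19*, which guides cells in lymphoid tissue, was 9.003 and 8.81 on WT PCN replicates 2 and 3 and 7.13 to 7.35 on the other PCN arrays, against 6.36 to 6.81 (median 6.59) in WT CONT. Without those 2 arrays only *Ccl7* of the 5 kept its call; *Ccl24* and *Ccl2* were then at adjusted p = 0.057 and 0.0507. *Cxcl5* also lost it without WT PCN replicate 3 alone (adjusted p = 0.0505). *Spp1* (osteopontin) and *Ccl20*, at 2.65 and 2.55, were not called (adjusted p = 0.0879 and 0.263).

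Of 18 measured neutrophil markers 15 were higher, with a median of 0.27. Of these *S100a9*, *S100a8* and *Lcn2* rose, *Lcn2* (an iron-siderophore trap that epithelium also makes) by 0.78 ± 0.16. The others were not called, the highest being *Retnlg*, *Cxcr2* and *Il1r2* at 0.71, 0.58 and 0.53 (adjusted p = 0.394, 0.171 and 0.233). *Cxcr2* was above background on no CONT array and on 3 PCN arrays. Further down the list, *Ltf* was 0.31, *Mmp8* 0.24, *Mpo* 0.11, *Csf3r* 0.03, *Elane* −0.01 and *Ly6g* −0.26. *Mpo* was above background on only 2 CONT and 2 PCN arrays. The list mean, which includes the called genes, was 6.995 to 7.29 on CONT arrays and 7.28 to 7.79 on PCN arrays. In *Pxr*-/- mice 5 markers were called. *Saa3*, an acute phase protein of epithelium and macrophages, rose by 1.40 ± 0.31, lost in 6 of 23 refits.

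Of the mast cell proteases, 3 rose. *Mcpt4*, a chymase, was 6.03 to 7.75 (median 7.27) in WT CONT and 9.09, 8.90, 10.22, 8.27 and 9.58 in WT PCN, a rise of 2.10 ± 0.35 (adjusted p = 0.00198). Its groups did not overlap. *Mcpt1* rose by 2.06 ± 0.38 and *Mcpt2* by 0.94 ± 0.18, the latter above background on 1 of 6 CONT arrays. These were 3 of 14 measured genes of mast cells and eosinophils, of which 11 were higher. *Ms4a2*, a chain of the IgE receptor, passed the test but not the fold threshold (0.54, adjusted p = 0.0127), and all its PCN arrays lay above the CONT arrays. It was above background on no CONT array and on only 2 PCN arrays. The others were not called, among them *Prg2* (0.41), *Kit* (−0.02), the growth factor receptor of the lineage, *Cpa3* (0.39), *Cma1* (0.17) and *Tpsb2* (0.05). *Cpa3* and *Cma1* were each above background on only 1 CONT array. The list mean was 6.38 to 6.76 in CONT and 6.94 to 7.34 in PCN, and the part of this shift in the calls was not tested. The 3 calls were kept without WT PCN replicates 2 and 3, and none passed with the B cell covariate. In *Pxr*-/- mice 3 genes of the list were called.

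Single genes known from stratified epithelium or mesothelium were called, although 12 of 33 keratins were higher (median −0.05). The median of the mesothelium list was 0.05, and 0.22 without WT PCN replicates 2 and 3. *Krt14*, a basal keratin of skin that the mesothelium list also holds, was 7.21 to 8.07 (median 7.79) in WT CONT and 10.33, 10.46, 10.37, 10.53 and 10.91 in WT PCN. All PCN values were above all CONT values, with a rise of 2.81 ± 0.30 (adjusted p = 1.38e-05). *Slurp1*, *Dmkn* and *Lgals7*, genes of keratinocytes, rose by 2.30 ± 0.26, 1.53 ± 0.20 and 1.40 ± 0.21, and *Slurp1* was above background on 4 of 6 CONT arrays. *Krt7*, a keratin of ducts and other simple epithelia, rose by 0.66 ± 0.10, and with *Krt14* and *Krt31* it made 3 calls among 33 keratins. *Msln* (mesothelin) was 10.03 to 10.94 (median 10.72) against 11.71, 11.53, 11.24, 11.83 and 11.65. Its groups did not overlap, and it rose by 0.99 ± 0.21 (adjusted p = 0.0133). *Krt14* and *Msln* were 2 of 8 measured mesothelial genes, whose list mean was 7.68 to 8.30 in CONT and 8.33 to 8.78 in PCN. That mean includes both calls, and their part in its shift was not tested. The other mesothelial markers were not called, with *Wt1* at 0.30, *Upk3b* at 0.01, *Lrrn4* at −0.25 and *Gpm6a* at 0.06. In *Pxr*-/- mice *Krt14* rose by 2.53.

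Serpins, inhibitors of serine proteases, gave 4 calls among 40. *Serpinb2*, a plasminogen activator inhibitor, was not above background on any CONT array and was at least 3.29-fold higher with PCN. *Serpina3n* was 7.31 to 8.20 (median 7.59) in WT CONT and 9.82, 9.82, 7.94, 9.23 and 9.70 in WT PCN. WT PCN replicate 3 lay within the CONT range. *Serpina3n* rose by 1.59 ± 0.27 (adjusted p = 0.00198), *Serpina3i* by 1.47 ± 0.20 and *Serpine2* by 0.72 ± 0.12. Members of the *Serpina3* family are close in sequence, and cross-hybridisation was not tested. Among 36 genes of fibroblasts and matrix 3 rose: *Timp1*, a metalloproteinase inhibitor (1.34 ± 0.32), *Fbln2* (0.83 ± 0.19) and *Lum* (0.70 ± 0.16), lost in 7, 8 and 5 of the 23 refits. Of these 36 genes 32 were higher, with a median of 0.17, and the list mean was 9.84 to 10.01 in CONT and 9.82 to 10.50 in PCN. Without WT PCN replicates 2 and 3, 35 were higher with a median of 0.31, and *Fbln2*, *Lox*, *Lum* and *Sparc* were called. In *Pxr*-/- mice the median was 0.39, with 8 genes called higher.

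Secreted modulators of growth factor signalling were called singly. *Chrdl2*, a BMP antagonist, was 6.60 to 7.38 (median 6.82) in WT CONT and 9.52, 10.18, 8.98, 9.62 and 10.24 in WT PCN, a rise of 2.75 ± 0.23 (adjusted p = 3.34e-07), and the groups did not overlap. *Grem1*, another BMP antagonist of the crypt stroma, rose by 0.89 ± 0.16 and *Rspo3*, a Wnt amplifier, by 0.65 ± 0.13. These were 2 of 43 measured genes of Wnt, BMP, Notch and Hedgehog signalling (4.65%, against 1.05% of all genes). *Rspo3* fell short of the fold threshold without WT PCN replicate 4 (0.54). *H19*, an imprinted non-coding RNA, was 6.06 to 7.76 (median 6.95) against 9.04, 9.92, 8.68, 9.76 and 9.45 and rose by 2.45 ± 0.29, with groups that did not overlap. *Chrdl2* rose by 2.17 in *Pxr*-/- mice as well.

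The glucocorticoid receptor is the nuclear receptor of corticosteroids. Of 19 measured targets 3 rose, and the median was 0.43 (0.34 to 0.59 over the alternative settings). *Fkbp5*, a chaperone of the receptor, was 10.28 to 11.18 (median 10.52) in WT CONT and 11.99, 12.14, 11.23, 11.81 and 12.25 in WT PCN. All PCN values lay above the CONT values, with a rise of 1.24 ± 0.22 (adjusted p = 0.00285) and 0.85 in *Pxr*-/- mice (adjusted p = 0.0246). *Mt2*, a metallothionein, rose by 1.73 ± 0.44 (adjusted p = 0.0494), a call lost in 17 of 23 refits, and its neighbour *Mt1* was 1.03 (adjusted p = 0.0906). *Lcn2*, given above, was the remaining call. *Tsc22d3* (0.35), *Per1* (0.48) and *Sgk1* (0.26), which glucocorticoids raise in many tissues, were not called, and *Tat* was −1.01.

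Single members of other families rose. *Gm10639*, a predicted protein whose gene lies among the alpha class glutathione transferases on chromosome 9, rose by 1.85 ± 0.29, and cross-hybridisation with those neighbours was not tested. *Gm10768*, a long non-coding RNA, rose by 1.47 ± 0.31, a call lost without WT PCN replicate 2 (1.37, adjusted p = 0.0551) or 5 (1.34, adjusted p = 0.0561). *Pparg*, the lipid-sensing receptor, was the only call among 35 nuclear receptors and partners (0.70 ± 0.17, lost in 14 of 23 refits). *Tlr1*, a receptor for bacterial lipopeptides, rose by 0.72 ± 0.14, 1 of 30 genes of TLR4 and NF-kB signalling. The *Tlr1* call was lost with the B cell list mean as a covariate. The calls of *Pparg* and *Tlr1* were 2.86% and 3.33% of their lists, against 1.05% of all genes. A single call is not a result about either list. *Plb1*, a brush border phospholipase, rose by 1.32 ± 0.30, *Clec10a*, a lectin of macrophages and dendritic cells, by 0.81 ± 0.18, and *Ifi205*, an interferon-inducible gene, by 0.63 ± 0.14. These last 3 calls were lost in 6, 5 and 5 refits. *H2-Q1*, a class I histocompatibility gene, rose by 0.68 ± 0.16, lost in 8.

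The genes that fell were few. *Bhmt*, which remethylates homocysteine with betaine, was 8.03 to 9.55 (median 8.38) in WT CONT and 7.67, 6.04, 5.91, 6.29 and 6.59 in WT PCN. The groups did not overlap, and *Bhmt* fell by 2.13 (SE 0.37, adjusted p = 0.00264). It was the single call among 26 genes of the methionine cycle and one-carbon metabolism, and in *Pxr*-/- mice it fell by 1.25 (adjusted p = 0.0495). *Galr2*, a galanin receptor, was 8.30 to 8.58 (median 8.34) against 7.30, 7.02, 7.06, 7.36 and 6.59. With no overlap, it fell by 1.34 (SE 0.16, adjusted p = 3.71e-05). No other gene of the 30 enteroendocrine hormones and markers was called. *Retnla*, a resistin-like product of alternatively activated macrophages, fell by 1.34, *Rdh16*, a retinol dehydrogenase, by 1.15, and *Kng1*, the kininogen precursor, by 0.94. These 3 calls were lost in 6, 5 and 6 of the 23 refits.

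Smaller decreases included *Kcna1*, a potassium channel (−0.72 ± 0.11), *Scube3*, a secreted signalling protein (−0.70 ± 0.14), *Rnase4*, a ribonuclease (−0.66 ± 0.13), and *Col8a2*, a short-chain collagen (−0.66 ± 0.12). The *Kcna1* call was lost without WT PCN replicates 2 and 3, and also with the B cell list mean as a covariate. *Ext1*, a heparan sulphate polymerase, fell by 0.66 and missed the fold threshold without WT CONT replicate 5 (−0.57). *Plagl1*, an imprinted zinc finger factor, *Gk*, glycerol kinase, *Mreg* (melanoregulin), *Lin7b*, a scaffold protein, and *4930581F22Rik*, a long non-coding RNA, gave changes of −1.10 to −0.67. Their calls were lost in 8, 19, 7, 4 and 6 of the 23 refits. Over the single-array refits the number of decreases ran from 9 to 26 and that of increases from 111 to 153. Leaving out replicate 3 of WT CONT gave 9 decreases, and leaving out its replicate 5 gave 12. The number was 10 without replicate 2 or 5 of WT PCN, and 8 without WT PCN replicates 2 and 3 together.

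Values in *Pxr*-/- mice were set beside those in WT. The arrays of the genotypes are separate, but normalisation, model and estimate of the spread were shared over all 23 arrays. Calls in the 2 genotypes are therefore not fully independent. Of 17727 genes, 261 (1.47%) were called for PCN in *Pxr*-/- mice. Of the 158 WT calls outside the xenobiotic families, 85 (53.8%) were also called there in the same direction, against 3 of 28 (10.7%) within those families. Among the 137 increases 80 (58.4%) were shared, and among the 21 decreases 5 (23.8%). A further share had the same sign without a call, 149 of 158 having the same sign in all. Beside those already given, *S100a4* rose by 1.91 in *Pxr*-/- mice, with CONT arrays at 10.75 to 11.09 and PCN arrays at 12.54 to 13.28. The CONT and PCN ranges did not overlap there either. *S100a9* rose by 2.91 and *S100a8* by 2.54 without PXR, *Il33* by 1.19, *Ccl2* by 1.45 and *Serpina3n* by 1.61. *H19* rose by 2.01, *Mcpt4* by 1.31 and *Defb40* by 1.84, and for none of these 9 genes did the difference between genotypes pass the test (adjusted p = 0.999 for each). *Galr2* fell by 0.90 there. A gene called in WT and not in *Pxr*-/- mice is not thereby shown to differ between them, and the difference was called for 7 of the 158.

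**Figure D3:**
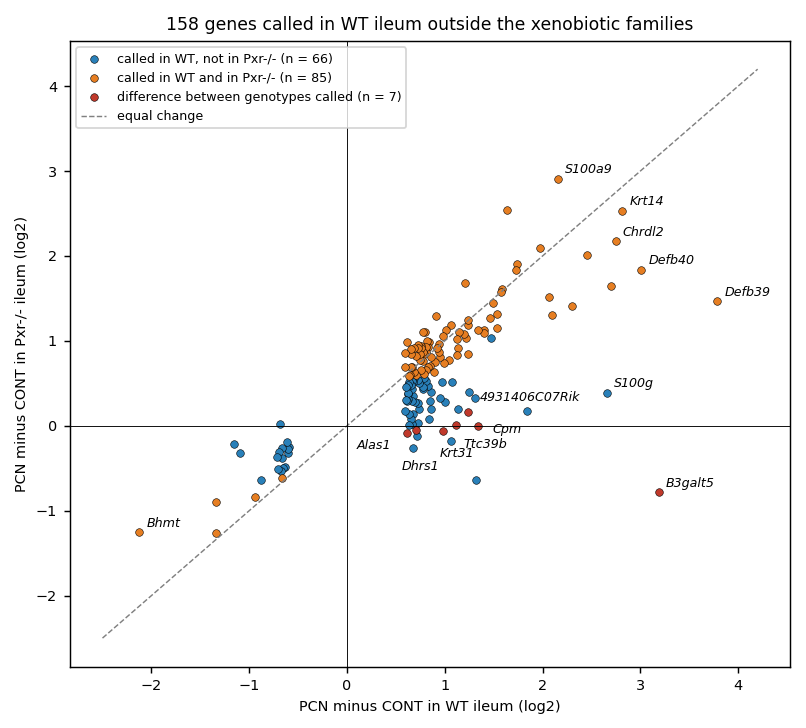
Log2 change with PCN in WT (horizontal) against that in *Pxr*-/- mice (vertical) for the 158 genes called in WT outside the xenobiotic families. Colours mark the 85 called in both genotypes, the 7 with a called difference and the 66 others; *B3galt5* lies at 3.19 and −0.78.

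Many intestinal programmes held no called gene. None of 9 genes of ileal bile acid handling was called: *Fabp6*, the bile acid carrier, was −0.09 and *Slc51a*, an exporter subunit, −0.12. *Fgf15*, the ileal hormone that represses bile acid synthesis in liver, was 1.27 with wide error (SE 0.68, adjusted p = 0.494). Brush border digestion and nutrient transport (37 genes, median 0.03, and −0.017 without WT PCN replicates 2 and 3) and fatty acid oxidation (27 genes, median −0.04) held no call. Among 26 genes of cholesterol synthesis and uptake 23 were higher, with a median of 0.16, and none was called. *Abca1*, a cholesterol transporter outside this list, was called higher but counted with the xenobiotic families. Without WT PCN replicates 2 and 3, 15 were higher with a median of 0.038, and in *Pxr*-/- mice the median was −0.29 with 2 genes called lower. Tuft cell genes (20 measured, median 0.10) and clock genes (19, median 0.08) likewise gave no call. None of 17 Paneth cell genes was called, and their median was 0.00 over all arrays, 0.29 with 15 higher when WT PCN replicates 2 and 3 were left out, and 0.39 in *Pxr*-/- mice.

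Some lists without any call lay mostly to one side. Of 20 goblet cell genes 17 were lower with PCN, with a median of −0.30 (15 and −0.18 without WT PCN replicates 2 and 3), and 5 lay below every CONT array, against 1.64% of all tested genes. *Muc2*, the gel-forming mucin, was −0.36 (adjusted p = 0.269), and *Agr2*, which folds it, −0.66 (adjusted p = 0.205). In *Pxr*-/- mice the goblet median was −0.25, with 3 members called lower. Of 39 genes of mitosis and DNA replication 3 were higher (median −0.17), but 14 were higher without WT PCN replicates 2 and 3 (median −0.092). Of 28 tight junction genes 3 were higher (median −0.16), and 7 without those arrays (median −0.17). Of 102 genes of the mitochondrial respiratory chain 8 were higher, with a median of −0.09 (12 and −0.076 without those arrays). Endothelial genes lay the other way, with 14 of 16 higher and a median of 0.21. For all genes the median was −0.02, and 7776 of 17727 were higher.

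**Figure D4:**
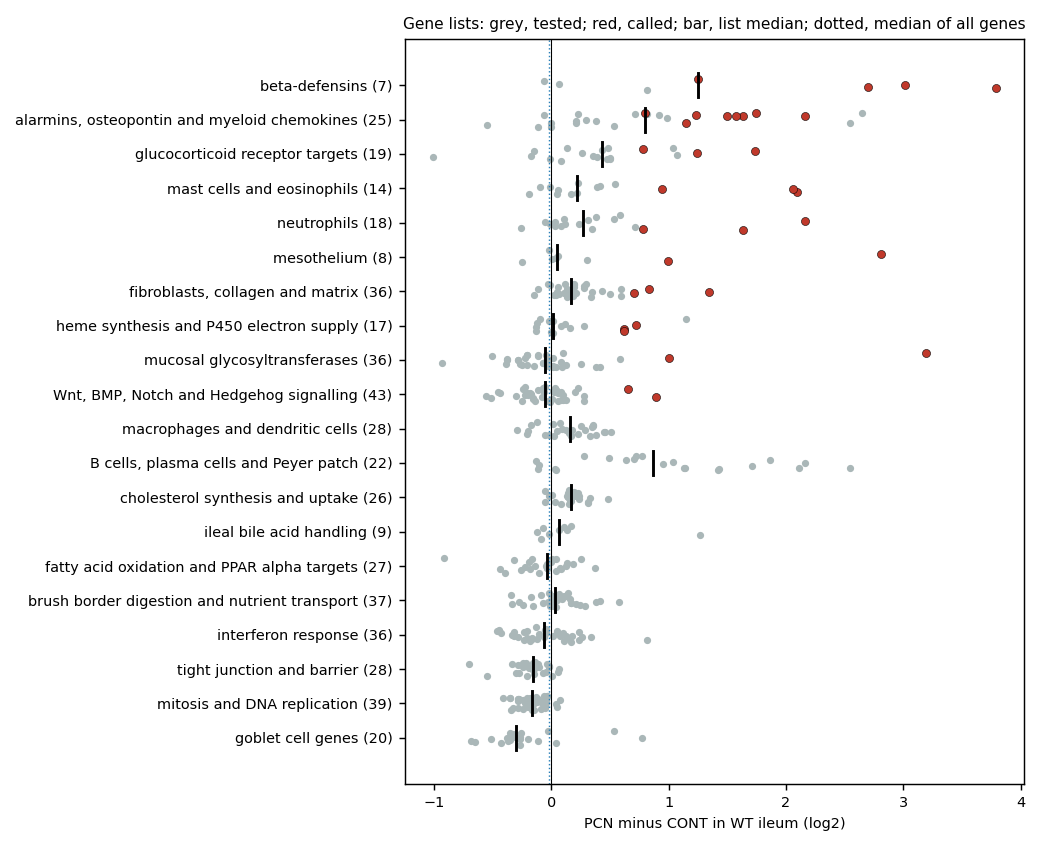
Log2 change with PCN in WT (horizontal axis) for the measured genes of 20 lists (rows), with called genes in red, others in grey, a bar at the list's median and a dotted line at the median of all genes. Called genes stand to the right in the beta-defensin, alarmin and mast cell rows, and the goblet cell row is centred at −0.30 with none called.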

How the data were processed

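Ileal RNA was hybridised to Agilent 1-colour arrays, 1 per mouse. The deposited scanner intensities were made with Agilent Feature Extraction 10.10.1.1 (submitters' processing notes). The deposited series table holds log2 values that the authors normalised with CrossNorm after a wash batch correction (37161 probes, every column median 8.024, Spearman correlation with the scanner values 0.9995 to 0.9997), and was used as an alternative.

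The median intensity was taken as log2, control and outlier spots were removed, spots of a probe averaged and the 23 arrays quantile normalised. Probes well above background on at least 50% of the arrays of a group were tested (37591 probes, 17727 genes). limma 3.58.1 (R 4.3.3) was fitted to 23 arrays with group and wash batch, with contrasts for PCN in each genotype and their difference, and p-values were adjusted over all probes (Benjamini-Hochberg). Calls needed an adjusted p of 0.05 or less with a fold over 1.5, and a gene took the values of its brightest tested probe. The brightest probe rule leaves out calls of other probes: 205 genes, xenobiotic families included, had any called probe. Symbols came from RefSeq accessions, else from the array. Promoters were RefSeq windows of 250 bases before to 50 after a start (GRCm38.p6), and single half-sites were counted after seeing that pairs were rare.

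The members and gene lists were chosen with earlier results of these data known. The rule named *Nr1i2*, *Cyp3a11* and *Cyp2c55* as checks, the 25 largest increases and 15 largest decreases outside the xenobiotic families and up to 4 called members of each list or family. Other genes were named after their values were seen. Wash batches held 3 and 3 WT CONT and 2 and 3 WT PCN arrays. In simulated data with 100 probes changed by 1 on the log2 scale 94 were recovered, and of 100 changed by 2, 98 were recovered, with 2 false calls. The simulated noise was independent between probes. Recovery under variation shared between genes, such as that of WT PCN replicates 2 and 3, was therefore not tested. The number of arrays limits the precision (median SE 0.10). In the alternatives, the values, scaling, background, filter, batch, slide, replicate number, variance model, thresholds and arrays were changed 1 at a time (2 alternatives changed a pair together). Replicate numbers did not pair the samples.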

Additional observations from a re-analysis of the deposited data

Results flagged for a closer look

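In 4 of 182 groups of arrays examined, 1 array lay apart from its group by Dixon's test, which marks about 1 group in 20 by chance. *Ccl24* was 9.90 on WT PCN replicate 2, against 8.25 to 8.66 on the other WT PCN arrays. *Rdh16* was 6.95 on WT CONT replicate 1, against 7.67 to 8.09 on the other WT CONT arrays. *Kng1* was 8.56 on WT CONT replicate 3, against 7.67 to 7.97. *H2-Q1* was 9.99 on WT CONT replicate 1, against 10.72 to 11.12.

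The response to PCN differed between WT and *Pxr*-/- mice by the limma test of the difference for 6 of the named genes, each with a larger change in WT. The differences were 3.58 for *Cyp3a11*, 3.97 for *B3galt5*, 0.70 for *Alas1*, 1.05 for *Krt31*, 0.76 for *Dhrs1* and 1.08 for *4931406C07Rik* on the log2 scale.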

How the results depend on the processing

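All 158 genes kept their direction wherever it was compared, in the alternatives and in the 23 fits that each left out 1 array. Among the 18 alternatives, direction was not compared where any probe of a gene counted. With no fold threshold the fit was the same, and the stricter filter on dim probes tested 157. The genes were chosen on these arrays, so the kept direction is not separate support. The call was kept in all 23 fits by 88, and in every alternative except single wash batches by 62. Of the counts outside the xenobiotic families, the WT total (158) was 24 within wash batch 1, 32 within wash batch 2 and 289 with no fold threshold, and 121 to 177 with 1 array left out. Increases (137) were 23, 30 and 220, and 111 to 153. Decreases (21) were 1, 2 and 69, and 9 to 26. They were 8 without WT PCN replicates 2 and 3 and 6 with the B cell list as a covariate. The *Pxr*-/- total (253) was 3, 104 and 868, and 163 to 293. Genes called in both genotypes (85) were 3, 16 and 140, and 64 to 101. Genotype differences (9) were 0 within either batch, 5 with no filter on dim probes, 3 without WT PCN replicates 2 and 3, 5 with the covariate, and 4 to 13 with 1 array left out. A single batch leaves 5 or 6 WT arrays. The other WT totals were 132 to 177. The genes called can differ under a similar total. With the covariate 144 were called, of which 85 were among the 158.

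Same-numbered replicates did not deviate together (residual correlations −0.175 to 0.0271). With the replicate number as a block the WT total was 132, of which 124 were among the 158, and the genotype differences were 5. *Nr1i2* (0.03, not called) was −0.026 with arrays centred on the median, −0.12 within wash batch 1, and −0.035 to 0.18 with 1 array left out, being below 0 without replicate 1 of WT CONT (−0.012) or replicates 1 or 5 of WT PCN (−0.035 and −0.0054). Dim genes are limited by signal over background, and a bound is given for *Serpinb2*. The changes of *Ms4a2* and *Cxcr2*, which were not called, carry no bound although no CONT array was above background. The causes of these changes were not tested.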
